A study of Homo sapiens with 12 samples.

Results

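The heat shock proteins and DNAJ chaperones of SK-UT-1 cells are described here across 3 treatments. SK-UT-1 is an established human uterine leiomyosarcoma (uLMS) cell line, and all groups were this line, grown in culture with no other genetic change named. The members were taken by their symbols, as the genes whose names begin with HSPA, HSPB, HSPD, HSPE, HSPH, HSP90 or DNAJ followed by a subfamily letter. Of 22784 symbols in the expression table, 91 had such names. Pseudogenes (20), antisense RNAs (3) and divergent noncoding transcripts (2) were left out, which left 66 members, and 58 of them passed the filter on low values. HSPA1A and HSPA1B, the classical heat-inducible HSP70 genes, are not analysed here.

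RNA was sequenced after 48 h in the vehicle DMSO (3 libraries), in 5 µM JQ1 (4 libraries) or in 5 µM I-BET 762 (3 libraries). JQ1 is a thienotriazolodiazepine and I-BET 762 a benzotriazolodiazepine, and both are inhibitors that keep BET proteins from reading acetylated histones. The labels do not say whether libraries of a group came from separate cultures, so the p-values measure the spread between these libraries, which may be technical. Both inhibitors were compared with the same DMSO libraries.

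Heat shock proteins keep other proteins folded. HSP70 proteins bind unfolded stretches in cycles of ATP hydrolysis, DNAJ proteins deliver clients and start that hydrolysis through their J domain, and nucleotide exchange factors, among them the HSP110 proteins, let the client go. HSP90 finishes the folding of kinases and steroid receptors, small HSPB proteins hold unfolded chains without ATP, and HSPD1 with HSPE1 forms the folding chamber of mitochondria. Under proteotoxic stress heat shock factor 1 (HSF1) binds repeats of the unit GAA and its complement TTC, called heat shock elements, in the promoters of part of these genes.

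Those letters could be read in RefSeq promoters (GRCh38.p14), each running from 250 bases before to 50 bases after an annotated start. Of the 66 members, 60 had at least 1 promoter there, with 82 promoters in all. Both strands are covered, since each pattern equals its own reverse complement or that of its partner. A pair of facing units, GAANNTTC or TTCNNGAA, stood in 20.7% of the 82 member promoters and in 13.5% of all 35116 promoters. A run of 3 adjoining units, in which a GAANNTTC and a TTCNNGAA share their middle unit, stood in 7 member promoters (8.54%) and in 0.49% of all promoters. The 7 genes were HSPA8, HSPA6, HSP90AA1, HSP90AB1, HSPD1, DNAJA1 and DNAJB6. In DNAJA1 the run lay after the start, and it is not printed. The other runs are shown because the 7 genes differed in their response to the inhibitors, which is described further on. Sequences read 5′ to 3′ on the strand of the gene, with the units of the run or pair shown in capitals. The HSP90AA1 stretch holds a further pair in lower case, at 68 bases before its start. The HSPD1 capitals cover overlapping runs, 18 bases in all.
HSPA8, chr11:123062346-123062374, minus strand: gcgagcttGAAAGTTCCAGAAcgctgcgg
HSPA8, chr11:123062171-123062199, minus strand: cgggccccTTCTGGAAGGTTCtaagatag
HSP90AA1, chr14:102087100-102087152, minus strand: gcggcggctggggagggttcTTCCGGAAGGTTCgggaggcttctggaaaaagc
DNAJB6, chr7:157336853-157336905, plus strand: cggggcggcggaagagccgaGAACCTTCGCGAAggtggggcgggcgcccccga
HSP90AB1, chr6:44247758-44247810, plus strand: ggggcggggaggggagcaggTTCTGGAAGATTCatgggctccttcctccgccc
HSP90AB1, chr6:44247811-44247863, plus strand: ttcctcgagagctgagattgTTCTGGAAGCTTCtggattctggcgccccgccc
HSPD1, chr2:197500062-197500090, minus strand: gcattTTCTGGAAAGTTCTGGAAccgagc
HSPA6, chr1:161524446-161524498, plus strand: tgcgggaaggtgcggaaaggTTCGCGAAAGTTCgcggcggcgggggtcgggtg

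DNAJB1 and HSPB8 are shown beside them, since they held single pairs of facing units and moved in opposite directions with JQ1. DNAJB1 held a pair at 77 and another at 47 bases before its start, and HSPB8 held 1 at 88 bases before its start and 1 after it. A match gives letters only, and binding was not measured.
DNAJB1, chr19:14518447-14518494, minus strand: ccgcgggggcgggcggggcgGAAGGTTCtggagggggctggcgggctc
DNAJB1, chr19:14518417-14518464, minus strand: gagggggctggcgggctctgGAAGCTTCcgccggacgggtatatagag
HSPB8, chr12:119178823-119178870, plus strand: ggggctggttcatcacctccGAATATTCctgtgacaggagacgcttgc

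The deposited values are log2(normalized count + 1), and counts are given here on the linear scale of normalized counts. Reads on genes numbered from 35564591 to 39658988 per library, recovered from the values, and 3 reads, the upper limit that a count of 0 allows, were worth 2.73 to 3.30 normalized counts. Of the smooth muscle markers, ACTA2, CALD1, TAGLN, DES, LMOD1 and CNN1 were present in DMSO and fell with both inhibitors, SMTN did not pass the fold threshold, and MYOCD had at most 1 read in any library. The summed level of the 8 markers in the table was 20500 to 21136 in DMSO, 10662 to 11269 with JQ1 and 11822 to 12374 with I-BET 762. The 5 epithelial markers summed to 1212 to 1271 in DMSO, 511 to 602 with JQ1 and 497 to 544 with I-BET 762. The 3 immune markers summed to at most 37.0 and the 4 endothelial markers to at most 7.40 in any library. The part of these markers in the results below was not tested.

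In DMSO the members spanned a wide range per kb of exon. The length merged the exons of all annotated transcripts of a gene. It can exceed the length of the transcripts expressed, so the order between genes is approximate. Before division by length, the DMSO mean was 128939 for HSPA8 and 87939 for HSP90AB1. Per kb, HSP90AB1, the constitutive cytosolic HSP90, stood first with a normalized count of 29510. It was followed by HSPA8, the constitutive cytosolic HSP70, with 26591 and HSP90AA1, the stress-responsive HSP90, with 15496. HSPD1 (7179), DNAJA1 (6700) and HSPB1 (3756) led the mitochondrial, DNAJA and small heat shock families, while DNAJB1 (1034) and DNAJC8 (2054) led DNAJB and DNAJC. On this scale the order at the top changed with JQ1, with HSPA8 at 47970, HSP90AB1 at 33814 and HSP90AA1 at 29927 per kb. All members together held 1.589% to 1.696% of the normalized counts of the DMSO libraries, 1.894% to 2.149% with JQ1 and 1.826% to 1.87% with I-BET 762. None of the 3 ranges overlapped. HSPA8 and HSP90AA1 held the difference, since the members other than these held 1.021% to 1.079% in DMSO, 1.007% to 1.064% with JQ1 and 1.026% to 1.035% with I-BET 762, ranges that overlapped. In bulk RNA, a change in the number of cells that carry a transcript and a change in its amount per cell cannot be told apart.

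**Figure D1:**
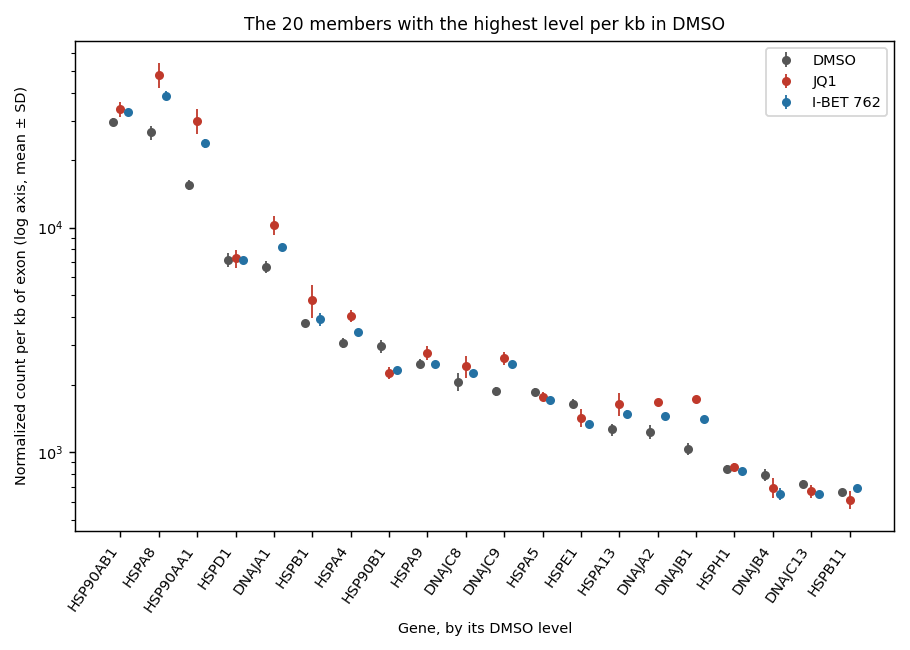
Mean normalized count per kb of exon (log axis, error bars SD) of the 20 members with the highest DMSO level, with DMSO (3 libraries) in grey, JQ1 (4) in red and I-BET 762 (3) in blue. HSPA8 stood at 26591 in DMSO and 47970 with JQ1, while HSPD1 stood at 7179 and 7293.

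JQ1 treatment changed 18 of the 58 tested members (31.0%), where a change means an adjusted p under 0.05 (limma, Benjamini-Hochberg over 14839 symbols) and more than a 1.5-fold difference. Over all tested symbols 36.1% were called. The 18 divided into 9 that rose and 9 that fell, each 15.5% of the members, beside 13.3% and 22.8% of all symbols. I-BET 762 treatment changed 13 members (22.4%, beside 26.9% of all symbols), of which 4 rose (6.9%, beside 8.96%) and 9 fell (15.5%, beside 17.9%). The median log2 fold change of the members was 0.05 with JQ1 and 0.06 with I-BET 762, and that of all symbols was 0.01 and -0.00. Without a fold threshold, 27 members were higher and 18 lower with JQ1 (46.6% and 31.0%, beside 36.0% and 35.6%), and 22 were higher and 20 lower with I-BET 762 (37.9% and 34.5%, beside 29.9% and 31.3%). The libraries of treated and control cells did not overlap in 41 members with JQ1 (70.7%, beside 68.4% of all symbols) and in 45 with I-BET 762 (77.6%, beside 71.0%).

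These counts moved with the scaling. With libraries set to equal totals, which moved the median of all symbols to -0.18 with JQ1 and -0.10 with I-BET 762, 4 members were called higher and 11 lower with JQ1, and 2 higher and 9 lower with I-BET 762. Under the same scaling 8.24% of all symbols were called higher and 28.4% lower with JQ1, and 6.7% and 20.6% with I-BET 762. HSPA8, HSP90AA1, DNAJC1 and DNAJC6 kept the JQ1 call, and HSPA4L (0.49), DNAJB1 (0.56), DNAJC21 (0.52), DNAJA1 (0.43) and DNAJB6 (0.42) stayed higher on the log2 scale but below the fold threshold. DNAJC27 (-0.59) and DNAJC7 (-0.63), named after their values were seen, then passed it with JQ1, and HSP90AA1 (0.52) and DNAJC21 (0.57) lost the I-BET 762 call.

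**Figure D2:**
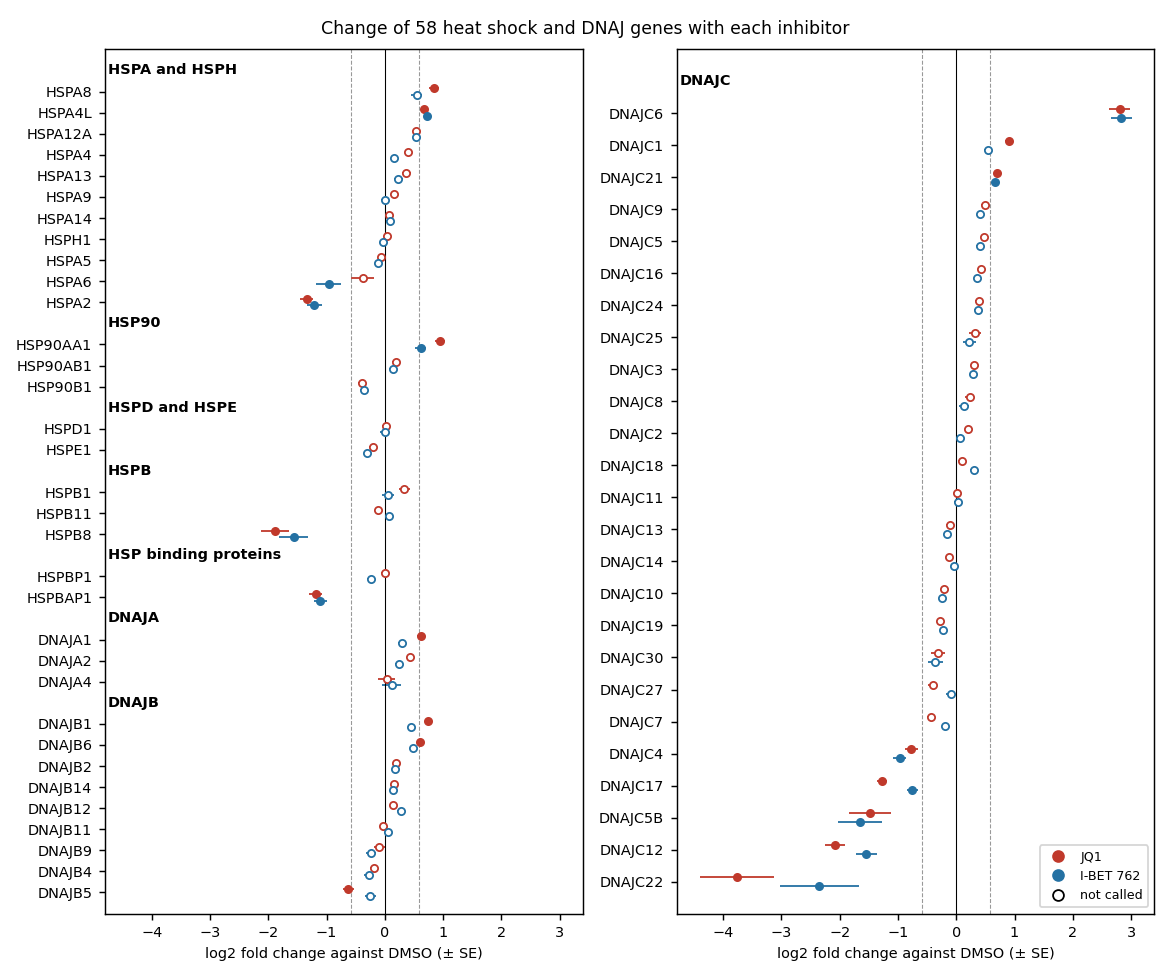
Log2 fold change against DMSO with its SE for the 58 tested members, by family, with JQ1 in red and I-BET 762 in blue. Filled points passed the test and the 1.5-fold threshold (dashed lines). DNAJC6 stood alone on the right at 2.80 and 2.83, and DNAJC22 was farthest to the left at -3.76 and -2.35.

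The members that rose with JQ1 included cytosolic members of the HSP70 and HSP90 cycle. HSPA8 (chr11:123057489-123063230, minus strand, hg38) had normalized counts of 121127, 139076 and 126614 in the DMSO libraries, 210713, 276743, 220455 and 222519 with JQ1, and 196411, 187956 and 179374 with I-BET 762. All treated libraries lay above all controls, and all JQ1 libraries lay above all I-BET 762 libraries. HSPA8 rose by 0.85 ± 0.090 (log2 fold change ± SE, adjusted p = 4e-07, limma) with JQ1, which is 1.80-fold. With I-BET 762 its log2 fold change was 0.54 ± 0.096 (adjusted p = 0.000142), below the 1.5-fold threshold, which it passed without DMSO replicate 14 (0.60). JQ1 replicate 18 held the highest HSPA8 count, and also the highest HSP90AA1 and DNAJA1 counts.

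HSP90AA1 (chr14:102080742-102139699, minus strand) gave 74694, 81115 and 81138 in DMSO, 132731, 177076, 158945 and 141405 with JQ1, and 122674, 124986 and 115154 with I-BET 762. The 3 groups did not overlap. HSP90AA1 rose with both inhibitors, by 0.94 ± 0.085 with JQ1 (adjusted p = 6.3e-08, limma) and by 0.61 ± 0.091 with I-BET 762 (adjusted p = 2.66e-05). The I-BET 762 call was lost without DMSO replicate 13 (log2 fold change 0.58). Its paralog HSP90AB1 gave 84633 to 91616 in DMSO, 94100 to 110667 with JQ1 and 96969 to 97662 with I-BET 762, with log2 fold changes of 0.19 and 0.15, and was not called. HSP90B1, the HSP90 of the endoplasmic reticulum, ran lower in the treated libraries (36010 to 40576, 27875 to 32104 and 29458 to 31049), with log2 fold changes of -0.40 and -0.36, and did not pass the fold threshold either.

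Among the J-domain partners of cytosolic HSP70, DNAJA1 and DNAJB1 rose with JQ1. DNAJB1 (chr19:14514769-14560391, minus strand) gave 8495, 8954 and 7955 in DMSO, 14458, 14176, 14077 and 13822 with JQ1, and 11595, 11598 and 11349 with I-BET 762. The groups did not overlap, and the JQ1 libraries lay within a narrow range. DNAJB1 rose 1.67-fold with JQ1 (log2 fold change 0.74 ± 0.046, adjusted p = 7.49e-10, limma), and its log2 fold change with I-BET 762 was 0.44 ± 0.049 (adjusted p = 1.21e-06).

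DNAJA1 (chr9:33025273-33039907, plus strand) gave 16652, 18881 and 18097 in DMSO, 26455, 31180, 26553 and 25489 with JQ1, and 22409, 22213 and 21323 with I-BET 762, again with no overlap. Its log2 fold change with JQ1 was 0.61 ± 0.065 (adjusted p = 4.06e-07, limma), close above the threshold, and the call was lost without JQ1 replicate 18 (0.55) or without DMSO replicate 13 (0.56). With I-BET 762 it was 0.30 ± 0.070. DNAJB6, which holds back aggregation of polyglutamine proteins, gave 3493 to 3633 in DMSO, 5219 to 5761 with JQ1 and 4868 to 5116 with I-BET 762. DNAJB6 rose by 0.60 ± 0.046 with JQ1 and stood at 0.48 ± 0.049 with I-BET 762, and the JQ1 call was lost without JQ1 replicate 17 (0.57). DNAJB5, of the same family, ran the other way, with 913, 993 and 997 in DMSO, 577, 717, 557 and 671 with JQ1 and 891, 787 and 766 with I-BET 762. It fell by 0.62 ± 0.088 with JQ1 (adjusted p = 9.49e-06, limma), a call lost without JQ1 replicate 17 (-0.58) or 19 (-0.57), and its log2 fold change with I-BET 762 was -0.25 ± 0.094.

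HSPA4L, an HSP110 nucleotide exchange factor, rose with both inhibitors. Its counts were 3675, 3900 and 3741 in DMSO, 5993, 6622, 5902 and 5675 with JQ1, and 6243, 6215 and 6218 with I-BET 762, so the treated groups overlapped each other and neither touched DMSO. The log2 fold changes were 0.68 ± 0.051 (adjusted p = 7.41e-09, limma) and 0.72 ± 0.055 (adjusted p = 1.82e-08). HSPH1, the better-known HSP110 protein, was picked after its values were seen as a contrast. It gave 6784 to 7353, 7015 to 7612 and 6736 to 6999, with log2 fold changes of 0.03 and -0.03 whose signs turned with another scaling or without 1 library, and it was not called.

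3 of the DNAJC genes rose. DNAJC6 encodes auxilin, which brings HSPA8 to clathrin coats so that they are taken apart and is best known from neurons. Its counts were low in DMSO (13.6, 12.9 and 12.7) and lay at 104, 92.5, 82.0 and 113 with JQ1 and at 84.6, 97.2 and 119 with I-BET 762. These were 14 reads in each DMSO library and 82 to 121 in the treated ones. DNAJC6 rose 6.97-fold with JQ1 (log2 fold change 2.80 ± 0.17, adjusted p = 7.46e-10, limma) and 7.13-fold with I-BET 762 (2.83 ± 0.19, adjusted p = 3.74e-09), the highest log2 fold change of the 58 members with each inhibitor.

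DNAJC21, which acts in the maturation of the large ribosomal subunit, also rose with both inhibitors. It gave 2408, 2513 and 2655 in DMSO, 4181, 4241, 3941 and 4068 with JQ1, and 3899, 4070 and 4040 with I-BET 762, with log2 fold changes of 0.70 ± 0.048 and 0.67 ± 0.051. DNAJC1, a J protein of the endoplasmic reticulum membrane, gave 1305, 1361 and 1444 in DMSO, 2718, 2633, 2438 and 2428 with JQ1, and 1990, 2011 and 1971 with I-BET 762. The 3 groups were apart. DNAJC1 rose by 0.90 ± 0.055 with JQ1 (adjusted p = 5.97e-10, limma), and its log2 fold change with I-BET 762 was 0.54 ± 0.059, below the threshold.

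The members that fell were mostly of low abundance. DNAJC22 (chr12:49346888-49357546, plus strand) showed the strongest fall, from 69.7, 67.5 and 83.7 in DMSO to 5.49, 8.70, 0 and 13.2 with JQ1 and 14.8, 9.02 and 18.7 with I-BET 762. All treated libraries lay below all controls, with 0 to 13 reads per JQ1 library. The log2 fold change was -3.76 ± 0.64 with JQ1 (adjusted p = 6.66e-05, limma) and -2.35 ± 0.68 with I-BET 762 (adjusted p = 0.00739). The JQ1 value rested in part on the library at 0, and without JQ1 replicate 19 it was -2.95.

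DNAJC12, a J protein needed for the stability of the aromatic amino acid hydroxylases, fell from 497, 558 and 551 to 85.7, 166, 117 and 147 with JQ1 and to 200, 179 and 170 with I-BET 762. The groups did not overlap, and the log2 fold changes were -2.09 ± 0.17 (adjusted p = 1.58e-08, limma) and -1.54 ± 0.18 (adjusted p = 2.07e-06). DNAJC17, a nuclear J protein linked to splicing, gave 616, 686 and 633 in DMSO, 288, 256, 266 and 258 with JQ1, and 421, 387 and 340 with I-BET 762. DNAJC17 fell with both, with log2 fold changes of -1.27 ± 0.087 and -0.76 ± 0.093. Of its exon bases 27.9% overlap exons on the opposite strand, and reads from both cannot be told apart if counting ignored strand, a setting the sources used here do not give.

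DNAJC5B, a relative of the synaptic vesicle J protein DNAJC5, fell from 20.3, 19.4 and 21.8 to 6.59, 5.44, 8.0 and 7.10 with JQ1 and 9.84, 4.01 and 4.92 with I-BET 762, at 4 to 10 reads per treated library. Its log2 fold changes were -1.48 ± 0.36 and -1.65 ± 0.38. DNAJC5B reached the filter, a normalized count of at least 10 in at least 3 libraries, through the DMSO libraries alone, so it had to be lower in the treated ones. Without it 57 members were tested and 8 fell with each inhibitor. DNAJC4 gave 352, 338 and 313 in DMSO, 199, 212, 195 and 174 with JQ1, and 146, 196 and 171 with I-BET 762, and fell with both, with log2 fold changes of -0.78 ± 0.11 and -0.97 ± 0.12. Of its exon bases 10.6% are shared with NUDT22 on the same strand. DNAJC8, the DNAJC gene with the highest level per kb in DMSO and a companion of the spliceosome, gave 5366 to 6444, 6380 to 8133 and 6302 to 6774, and was not called.

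**Figure D3:**
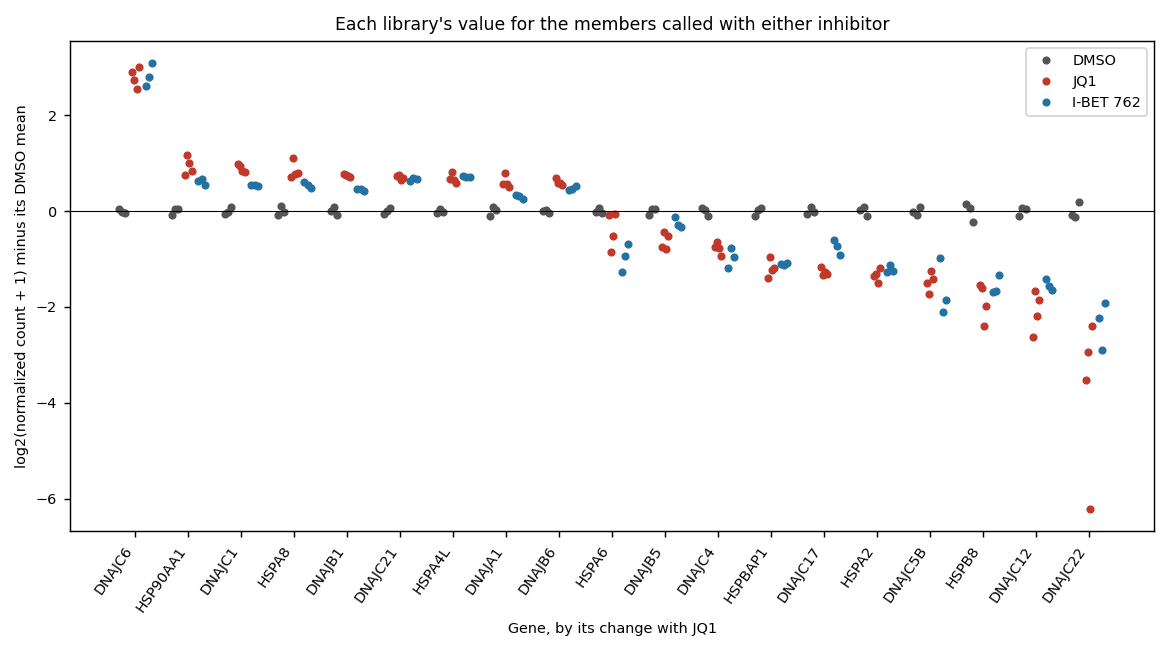
Each point is 1 library, as log2(normalized count + 1) minus the DMSO mean of that gene, for the 19 members called with either inhibitor, with DMSO in grey, JQ1 in red and I-BET 762 in blue. HSPA6 was the only gene of the 19 called with I-BET 762 and not with JQ1, and the lowest point of DNAJC22 is the JQ1 library at 0.

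Of the HSPA genes, HSPA2, an HSP70 known from spermatogenesis, fell with both inhibitors, from 251, 261 and 229 to 95.6, 99.0, 86.0 and 108 with JQ1 and 102, 113 and 103 with I-BET 762. The log2 fold changes were -1.34 ± 0.12 (adjusted p = 3.64e-08, limma) and -1.21 ± 0.12 (adjusted p = 5.17e-07). HSPA6, the strictly heat-inducible HSP70, gave 94.9, 102 and 93.7 in DMSO, 91.2, 53.3, 67.0 and 92.3 with JQ1, and 39.4, 50.1 and 60.0 with I-BET 762. Both treated groups lay below DMSO, and they overlapped each other. HSPA6 fell by 0.96 ± 0.21 with I-BET 762 (adjusted p = 0.00107, limma) and its log2 fold change with JQ1 was -0.38 ± 0.20 (adjusted p = 0.101). Of the 75-base exon stretches of HSPA6, 38.7% have an exact copy elsewhere in the genome, so its counts are uncertain.

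HSPB8, a small heat shock protein that works with BAG3 in the removal of damaged proteins from muscle, fell from 87.2, 82.3 and 67.3 to 26.4, 25.0, 14.0 and 19.3 with JQ1 and 23.6, 24.1 and 30.5 with I-BET 762. All treated libraries were below all controls, with log2 fold changes of -1.88 ± 0.24 (adjusted p = 2.76e-06, limma) and -1.56 ± 0.25 (adjusted p = 6.27e-05). HSPB1 (HSP27), far more abundant, gave 6172, 6009 and 6104 in DMSO, 8480, 6333, 9173 and 7015 with JQ1 and 6799, 6171 and 6020 with I-BET 762. Its log2 fold change was 0.33 ± 0.094 with JQ1 (adjusted p = 0.00522) and 0.05 ± 0.10 with I-BET 762, the sign of the latter turning with another scaling, and it was not called. HSPBAP1, a binding protein of small heat shock proteins that the symbol rule also takes in, fell from 344, 375 and 381 to 140, 188, 156 and 161 with JQ1 and 171, 166 and 172 with I-BET 762 (log2 fold changes -1.19 ± 0.11 and -1.10 ± 0.11).

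Among the chaperones of mitochondria and of the endoplasmic reticulum, 1 member passed the fold threshold. Of 6 tested mitochondrial members none was called with either inhibitor by limma, beside 36.1% (JQ1) and 26.9% (I-BET 762) of all symbols. Their log2 fold changes ran from -0.31 to 0.16 (JQ1) and -0.36 to 0.02 (I-BET 762). Without a fold threshold 1 of them was higher and 3 lower with JQ1 (16.7% and 50%, beside 36.0% and 35.6%). With I-BET 762 none was higher and 3 were lower (0% and 50%, beside 29.9% and 31.3%). HSPD1 gave 50412 to 57757 in DMSO, 52019 to 62923 with JQ1 and 53387 to 55670 with I-BET 762, with log2 fold changes of 0.02 and -0.00 whose signs turned with the scaling or 1 library. Its partner HSPE1 gave 2902 to 3157, 2370 to 2808 and 2376 to 2488, with log2 fold changes of -0.21 and -0.30. Of 12 members of the endoplasmic reticulum DNAJC1 alone was called, with JQ1. Without a fold threshold 7 were higher and 2 lower with JQ1 (58.3% and 16.7%, beside 36.0% and 35.6% of all symbols), and 6 were higher and 3 lower with I-BET 762 (50% and 25%, beside 29.9% and 31.3%). JQ1 gave them log2 fold changes between -0.40 (HSP90B1) and 0.90 (DNAJC1), and I-BET 762 between -0.36 and 0.54. HSPA5 (BiP), the sensor-bound HSP70 of that compartment and a classical target of the unfolded protein response, gave 11828 to 12644, 10767 to 11995 and 10845 to 11435, with log2 fold changes of -0.07 and -0.11. It was named after its values were seen.

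The 2 inhibitors, given at the same dose for the same time, were then compared with each other in 1 pairwise comparison. No member passed both the test and the 1.5-fold threshold by limma, beside 5.31% of all symbols (1.73% higher and 3.59% lower with JQ1). At an adjusted p under 0.05 with no fold threshold, 11 members were higher and 6 lower with JQ1 than with I-BET 762 (19.0% and 10.3%, beside 13.3% and 14.0% of all symbols). An unadjusted p under 0.05 (limma) was found for 21 of 58 members, beside 5744 of 14839 symbols, a similar share. With limma-voom on recovered reads 2 members were called, and the share of all symbols under that setting was not counted. Of the 12 members called in the same direction with both inhibitors, 4 up and 8 down, 8 had the larger log2 fold change with JQ1. Among the 8 down was DNAJC5B, which passed the filter through the DMSO libraries alone and so had to be lower. The shares of all symbols that match the 12 and the 8 with the larger change were not counted. Neither count can be read as particular to these genes. More of all symbols were called with JQ1 (36.1%) than with I-BET 762 (26.9%). The paper reports the opposite order for its own counts of changed genes. Here the JQ1 group had 4 libraries and the I-BET 762 group had 3. Why the orders differ was not tested.

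5 of the members that rose with JQ1 were higher with JQ1 than with I-BET 762 at an adjusted p under 0.05 and below the fold threshold. The difference between JQ1 and I-BET 762 on the log2 scale was 0.30 for HSPA8 (95% interval 0.11 to 0.49, adjusted p = 0.0211, limma), 0.33 for HSP90AA1 (0.15 to 0.51, adjusted p = 0.0103) and 0.31 for DNAJA1 (0.18 to 0.45, adjusted p = 0.00239). DNAJB1 differed by 0.30 (0.20 to 0.39, adjusted p = 0.000269) and DNAJC1 by 0.36 (0.24 to 0.47, adjusted p = 0.000233). In these 5 genes every JQ1 library was above every I-BET 762 library. Over all alternatives the lowest differences were 0.21 for HSPA8 and DNAJB1, 0.23 for DNAJA1, 0.24 for HSP90AA1 and 0.27 for DNAJC1. Equal totals moved the median of all symbols in this comparison to -0.09. The adjusted p of HSPA8 rose to 0.0977 without I-BET 762 replicate 23 (difference 0.27), and was also above 0.05 without I-BET 762 replicate 22, with no filter on low values and with no intensity trend. That of HSP90AA1 rose to 0.0598 without I-BET 762 replicate 23 (0.29). HSPA6 showed the largest difference in this direction, 0.58 (0.16 to 1.01, adjusted p = 0.0415), just short of the 1.5-fold threshold of 0.585, with JQ1 and I-BET 762 libraries overlapping. Leaving out each library moved it from 0.43 (without I-BET 762 replicate 21, adjusted p = 0.194) to 0.74 (without JQ1 replicate 18). It passed the threshold without JQ1 replicate 18 or 19 (0.63) or I-BET 762 replicate 23 (0.73), and its adjusted p was above 0.05 without DMSO replicate 14 or 15, JQ1 replicate 17 or 20, or I-BET 762 replicate 21 or 22, and under each other scaling.

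3 genes that fell were lower with JQ1. DNAJC17 differed by -0.51 (95% interval -0.70 to -0.33, adjusted p = 0.000515, limma), DNAJC12 by -0.54 (-0.90 to -0.18, adjusted p = 0.0259) and DNAJB5 by -0.37 (-0.56 to -0.19, adjusted p = 0.0055). With libraries scaled to equal totals DNAJC17 (-0.60) and DNAJC12 (-0.63) passed the fold threshold as well (2 members lower and none higher by limma, beside 5.27% and 1.16% of all symbols), as did DNAJC17 without I-BET 762 replicate 23 (-0.60). Leaving out each library moved DNAJC12 from -0.36 (without JQ1 replicate 17) to -0.68 (without JQ1 replicate 18). DNAJC12 passed the fold threshold without JQ1 replicate 18 or 20 (-0.62), and its adjusted p was above 0.05 without JQ1 replicate 19 or any 1 of the I-BET 762 libraries, at most 0.11.

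For other members no difference between the compounds was detected, with intervals of unequal width. The difference of HSPA4L was -0.04 (95% interval -0.15 to 0.07), of DNAJC21 0.04 (-0.06 to 0.14) and of DNAJC6 -0.03 (-0.40 to 0.34). For each of these a 1.5-fold difference lay outside the interval, which was widest for DNAJC6. HSPB8 differed by -0.32 (-0.82 to 0.19), DNAJC5B by 0.17 (-0.58 to 0.93) and DNAJC22 by -1.42 (-2.78 to -0.06, adjusted p = 0.114, limma), and these intervals reached past a 1.5-fold difference. Leaving out each library moved the difference of DNAJC22 from -0.60 (without JQ1 replicate 19, the library at 0) to -1.88 (without JQ1 replicate 20, where it was called).

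**Figure D4:**
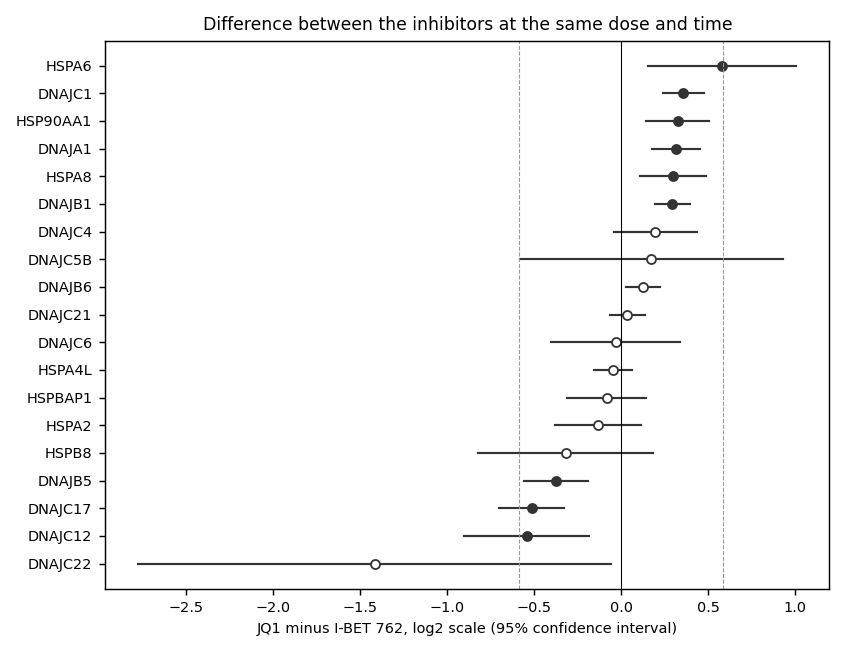
Difference between JQ1 and I-BET 762 on the log2 scale with its 95% interval, for the 19 members called with either inhibitor. Filled points had an adjusted p under 0.05 and dashed lines mark a 1.5-fold difference. HSPA8, HSP90AA1, DNAJA1, DNAJB1 and DNAJC1 lie between 0.30 and 0.36, and DNAJC22 has the widest interval.

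The promoter letters were set beside these values as a description, since the direction of each gene was already known. Of 8 members that rose with JQ1 and had a promoter, 7 held at least 1 pair of facing units and 4 held the run of 3 units (HSPA8, HSP90AA1, DNAJA1 and DNAJB6). Of 7 that fell with JQ1 and had a promoter, HSPB8 alone held a pair and none held the run. Of 38 tested members not called with JQ1, 7 held a pair and 3 the run, namely HSP90AB1 and HSPD1, which were not called with either inhibitor, and HSPA6, which fell with I-BET 762. Over all tested symbols with a promoter, 13.5% of genes held a pair and 0.489% the run. Pairs were thus found in promoters of genes that rose, genes that fell and genes that were not called, in unequal shares. In DNAJC6, which rose, the pair lay after the start. Whether the letters bear on the response was not tested. A gene may have further starts that were not searched.

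A set of 18 genes known to rise on heat shock, which shares members with the list above, was read as a whole. The set was written with earlier results of these data known, so its shares are a description and not independent support. Its 16 genes in the table had 6 that rose and none that fell with JQ1 (HSPA8, HSP90AA1, DNAJA1, DNAJB1, HSPA4L and the HSP90 co-chaperone CHORDC1), while 2 rose (HSP90AA1 and HSPA4L) and 1 fell (HSPA6) with I-BET 762. With JQ1 37.5% of the set rose, beside 13.3% of all symbols that rose and 22.8% that fell. With I-BET 762 12.5% rose and 6.25% fell, beside 8.96% and 17.9%. Without a fold threshold, 9 of the set were higher and 3 lower with JQ1 (56.2% and 18.8%, beside 36.0% and 35.6% of all symbols). With I-BET 762, 7 were higher and 5 lower (43.8% and 31.2%, beside 29.9% and 31.3%). Under equal totals DNAJA1, DNAJB1, HSPA4L and CHORDC1 lost the JQ1 call and HSP90AA1 the I-BET 762 call. The median log2 fold change of the set was 0.25 with JQ1 and 0.10 with I-BET 762, beside 0.01 and -0.00 for all symbols. The factors HSF1 and HSF2 did not pass the fold threshold. HSF1 gave 1528 to 1626 in DMSO, 1654 to 2011 with JQ1 and 1555 to 1636 with I-BET 762 (log2 fold changes 0.19 and 0.02), and HSF2 gave 2839 to 3200, 2690 to 3392 and 3018 to 3153 (-0.07 and 0.03). With I-BET 762 the sign of both turned with another scaling. RNA levels say nothing of HSF1 activity, which is set on the protein.

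The genes that work with the chaperones were taken from 6 lists, covering heat shock factors, other chaperones, co-factors of HSP70 and HSP90, the cytosolic chaperonin and prefoldin. Of these partners, 6 of 51 tested genes were called with JQ1 (11.8%, beside 36.1% of all symbols), of which 4 rose and 2 fell. With I-BET 762 3 were called (5.88%, beside 26.9%), of which 2 rose and 1 fell. Their median log2 fold changes were 0.16 and 0.05. None of 9 tested subunits of the cytosolic chaperonin and none of 5 tested prefoldin subunits, which pass new actin and tubulin chains to it, was called by limma with either inhibitor, and log2 fold changes ran from -0.21 to 0.46 (JQ1) and -0.17 to 0.31 (I-BET 762). Before a fold threshold, 27 of the 51 partners (52.9%) were higher and 8 (15.7%) lower with JQ1, beside 36.0% and 35.6% of all symbols. With I-BET 762, 18 (35.3%) were higher and 9 (17.6%) lower, beside 29.9% and 31.3%.

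STUB1 (CHIP), the ubiquitin ligase that marks clients of HSP70 and HSP90 for degradation, rose with both inhibitors. It gave 3084, 3123 and 3193 in DMSO, 7130, 6171, 7139 and 6686 with JQ1, and 6498, 6477 and 6202 with I-BET 762, with log2 fold changes of 1.11 ± 0.052 (adjusted p = 2.91e-11, limma) and 1.03 ± 0.056 (adjusted p = 4.47e-10). Of its exon bases 42.5% overlap exons on the opposite strand, with the same limit as for DNAJC17. FKBP5, an HSP90 co-chaperone of steroid receptors, rose from 2624, 2779 and 2686 to 4803, 4966, 5040 and 4891 with JQ1 and to 3876, 4175 and 4185 with I-BET 762 (0.87 ± 0.046 and 0.60 ± 0.049). Its I-BET 762 call was lost without DMSO replicate 13 and without I-BET 762 replicate 22 or 23, with log2 fold changes of 0.58 each.

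HSBP1L1, a relative of the HSF1-binding protein HSBP1, fell from 368, 336 and 408 to 113, 107, 98.0 and 73.0 with JQ1 and to 146, 102 and 136 with I-BET 762 (log2 fold changes -1.93 ± 0.16 and -1.54 ± 0.17). With JQ1, CHORDC1 rose (0.71 ± 0.060), and BAG4, a nucleotide exchange factor, rose (0.59 ± 0.058). The BAG4 call was lost without JQ1 replicate 18 (0.54) or DMSO replicate 13 (0.55). The I-BET 762 values of these genes were 0.43 and 0.55, below the threshold. Under equal totals CHORDC1 (0.53) and BAG4 (0.41) lost the JQ1 call and FKBP5 (0.50) the I-BET 762 call. CHORDC1 and BAG4 were named after their values were seen, and the difference between the inhibitors was not called for any of the 51 partners by limma.

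The 8 members that did not pass the filter were DNAJA3, DNAJB13, DNAJC5G, DNAJC25-GNG10, DNAJC28, HSPA12B, HSPB6 and HSPB9. Their highest counts in any library ran from 1 read for DNAJC28 to 13 reads for DNAJB13. DNAJA3, which encodes a J protein found in mitochondria, was listed at 0 to 2 reads, and whether all its reads were assigned to this symbol was not tested, so the value may not measure its expression. The other 39 tested members that were not called had log2 fold changes between -0.44 and 0.54 (JQ1) and between -0.36 and 0.54 (I-BET 762).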

How the data were processed

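The authors trimmed the reads with Trimmomatic, mapped them to hg38 with HISAT2 2.2.1, counted them with featureCounts 2.0.3 on Gencode V41 and normalized the counts with DESeq2 1.36.0. The deposited values are log2(normalized count + 1) for 10 of the 12 labelled libraries; 1 DMSO and 1 I-BET 762 library are not analysed here. The kit keeps strand, and the strand setting of the counting is not given in the sources used here. Whole reads could be recovered for 99.7% to 99.8% of values per library (tolerance 0.05 of a read). The floors cover counting error only. The intervals come from limma and, like the p-values, reflect the spread between these libraries.

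Symbols with a normalized count of at least 10 in at least 3 libraries (14839) entered limma 3.58.1 with an intensity trend, 1 model over the 10 libraries, and Benjamini-Hochberg adjustment over all of them. A gene was called at an adjusted p under 0.05 and more than 1.5-fold, on the log2(value + 1) scale, which understates the change of low genes. In simulated counts for each comparison with DMSO (14854 genes fitted), 100 of 100 genes changed 2-fold and 100 of 100 changed 4-fold were called, with 4 unchanged genes called. The simulation used a fixed spread, changed far fewer genes than were called in the data and added no shift between library totals. Its changed genes were drawn above a minimum DMSO level, so it does not cover genes as low as DNAJC6 and DNAJC5B. Exon lengths, merged over all transcripts of a gene, and overlaps came from Gencode V44, under which all 66 members were found (HSPB11 as IFT25). Exact copies of 75-base exon stretches were searched with blastn 2.17.0. Promoters came from RefSeq.

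The members, lists and tests were chosen with earlier results of these data known. Named genes were those called with either inhibitor, in each family the gene with the highest DMSO level per kb and the largest rise and fall with JQ1, partner genes called with both inhibitors, and HSF1 and HSF2. Alternatives were other pseudocounts, filters, scalings, fold thresholds, variance models and sample sets, limma-voom on recovered reads, and leaving out each library. The values of 1 partner gene are not reported here, and it stays in the counts of its list.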

Additional observations from a re-analysis of the deposited data

Results flagged for a closer look

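In the JQ1 group, the only group of 4 libraries, 3 of the 58 tested members had 1 library far from the others by Dixon's test on the log2 scale, and the library was replicate 18 each time. Chance flags about 1 in 20 groups, so 3 of 58 is near the number that chance alone would give. HSPH1 stood at 7612 in replicate 18 and at 7015 to 7076 in the other JQ1 libraries, a gap of 0.893 of the whole range. DNAJC7, a co-chaperone that binds both HSP70 and HSP90, stood at 4094 in replicate 18 and at 3551 to 3637 in the others (0.832). DNAJC5, the synaptic vesicle J protein also used in secretion of misfolded proteins, stood at 4177 in replicate 18 and at 4711 to 4805 in the others (0.858). None of the 3 genes was called with either inhibitor.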

How the results depend on the processing

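No paired analysis was possible because the groups share no replicate number, and the labels name no batch. Precision is limited to 3 or 4 libraries per group and, for DNAJC5B and DNAJC22, to under 20 reads per treated library.

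Under equal totals and under limma-voom on recovered reads the median log2 fold change of all symbols moved to -0.18 with JQ1 and -0.10 with I-BET 762. Members called higher were then 4 with JQ1 (HSPA8, HSP90AA1, DNAJC1 and DNAJC6 kept the call) and 2 with I-BET 762 (HSPA4L and DNAJC6 kept it), and 2 members were called lower in the direct comparison, 2 in all. A mean normalized count of at least 100 left 8 members called with I-BET 762, 5 of them lower, since fewer genes were tested. A pseudocount of 0.5 gave 1 call in the direct comparison, higher with JQ1. With no fold threshold 45 members were called with JQ1 (27 higher, 18 lower), 42 with I-BET 762 (22 and 20) and 17 between the inhibitors (11 and 6), and the partner lists had 35, 27 and 12. A 2-fold threshold left 8 with JQ1 (1 higher), 7 with I-BET 762 (1 higher) and 2 partners with JQ1. Leaving out each library gave 16 to 18 calls with JQ1, 11 to 13 with I-BET 762 and 0 to 2 between the inhibitors (0 to 1 higher and 0 to 2 lower), with 2 without JQ1 replicate 18, JQ1 replicate 20 or I-BET 762 replicate 23 and 1 without JQ1 replicate 19.

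Over 1703 alternative values of named genes, 1619 kept their direction and their side of the thresholds, 36 lost a call, 15 gained 1 and 33 changed sign. All changes of sign were of values that were not called. With JQ1 they were HSPD1 (-0.16 under equal totals and voom, -0.043 under upper quartiles, -0.040 to 0.061 leaving out each library), HSPH1 (-0.15 under equal totals and voom, -0.033 under upper quartiles) and DNAJA4 (-0.15, -0.14 and -0.030 under these, -0.062 to 0.095 leaving out each library). With I-BET 762 they were HSPB1 (-0.044 under equal totals and voom, -5.3e-05 to 0.088 leaving out each library), HSF1 (-0.072 under equal totals, -0.071 under voom, -0.012 under upper quartiles), HSF2 (-0.068, -0.069 and -0.0085 under these, -0.018 to 0.068 leaving out each library), HSPD1 (-0.061 to 0.037 leaving out each library) and HSPH1 (-0.052 to 0.0060). Between the inhibitors they were DNAJC21 (-0.052 under equal totals and voom), DNAJC6 (-0.15 to 0.10 leaving out each library) and DNAJC5B (-0.052 to 0.50). The cause of these changes was not tested.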

Other observations

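DNAJA4, the DNAJA gene with the smallest log2 fold change with JQ1, is a partner of cytosolic HSP70. It gave 82.3, 82.3 and 67.3 in DMSO, 69.2, 86.0, 90.0 and 72.0 with JQ1, and 81.7, 79.2 and 90.6 with I-BET 762. The groups overlapped, with log2 fold changes of 0.03 and 0.12, and the sign with JQ1 turned with the scaling.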
